A study of Mus musculus with 2 samples.

Results

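The purine and pyrimidine genes described here are 37 enzyme genes that make or recycle nucleotides, chosen by name from the 43346 annotated genes in the tables. They cover phosphoribosyl pyrophosphate (PRPP) supply, de novo synthesis of purines and pyrimidines, salvage of bases and nucleosides, deoxynucleotide supply and the nucleotide kinases. RNA was sequenced from CH12.LX, an immortalized mouse B-cell lymphoma line of strain B10.H-2aH-4bp/Wts that the labels describe as the analog of the human line GM12878. There were 2 libraries, biological replicates 1 and 2 of separate biosamples, and the labels name no treatment and no second cell type. With 1 group of 2, levels are given for each replicate or as mean ± SD (n = 2), no test between conditions exists, and the order of 2 genes is called only where both replicates lay apart.

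Nucleotides can be built from PRPP, amino acids, bicarbonate and folate-carried carbon (de novo synthesis), or bases and nucleosides can be reused (salvage). Purines are assembled on the ribose phosphate until inosine monophosphate (IMP) is reached, from which the AMP and GMP branches part, whereas the pyrimidine ring is closed before PRPP is attached. Lymphocytes that divide draw on both routes, and inherited loss of the breakdown enzymes adenosine deaminase or purine nucleoside phosphorylase causes immunodeficiency in humans.

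The libraries held 24469094 and 23586580 expected counts, which are estimated reads per gene. All 7 B-cell markers reached 1 TPM, a transcript level corrected for length and depth, in both replicates, from Pax5 at 8.43 TPM to Cd74 at 2359 TPM. None of 4 T-cell, 4 myeloid and 3 stromal or endothelial markers did, with the highest of them at 0.295 TPM, and 1 of 3 erythroid markers did, Hba-a1 at 3.60 TPM. All 4 markers of dividing cells passed, from Mki67 at 43.5 TPM to Pcna at 662 TPM.

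Every one of the 37 genes was expressed, with no replicate under 1 TPM, a level that 25.4% of all annotated genes and 45.9% of protein-coding genes reached. Of the 37, 22 reached 100 TPM in both replicates, which 5.88% of protein-coding genes did. Their median was 126 TPM, and 33 of the 37 lay above 19.2 TPM, the median over the 9862 protein-coding genes that reached 1 TPM. Together they held 0.631% ± 0.00762 of all TPM. In a bulk library, fewer cells that express a gene and less RNA per cell cannot be told apart.

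**Figure D1:**
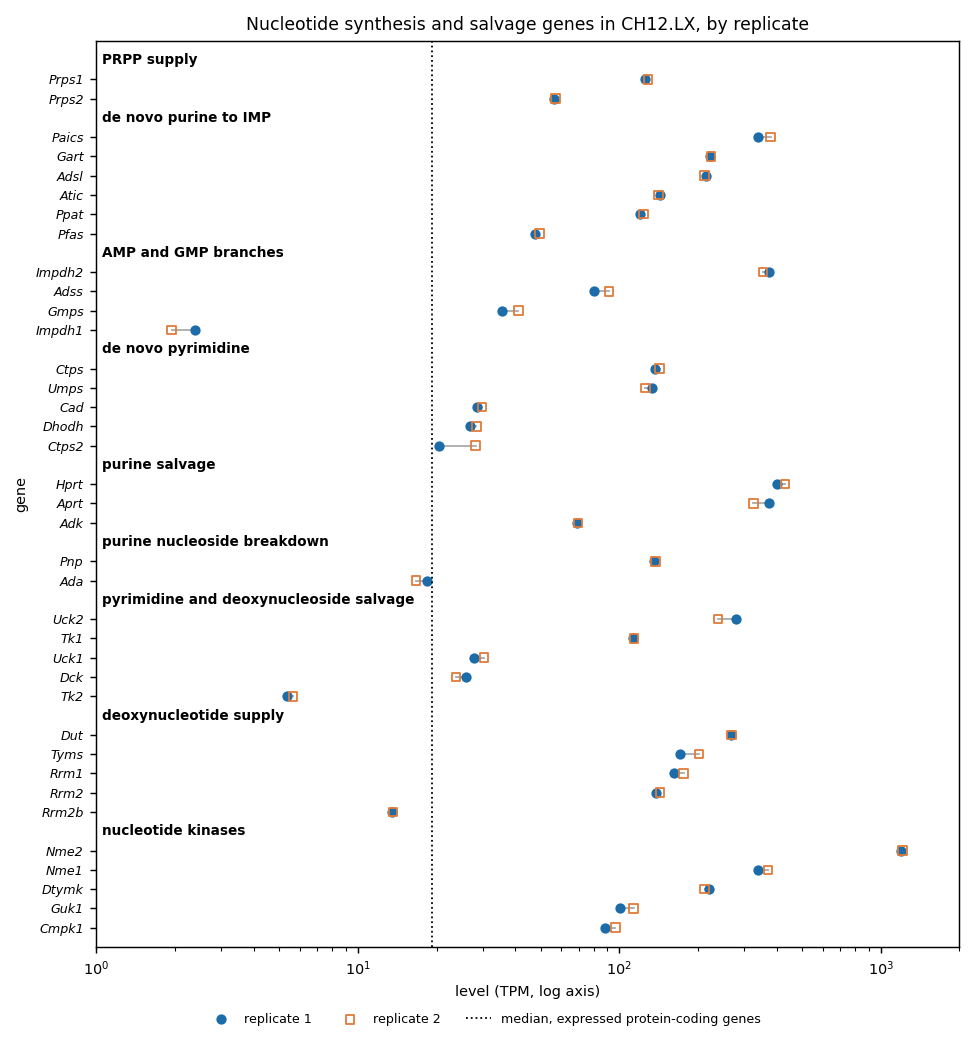
Level of each of the 37 genes in TPM (log axis), by role, with a filled circle for replicate 1, an open square for replicate 2 and a dotted line at 19.2 TPM, the median of expressed protein-coding genes. The genes run from Impdh1 at 2.38 and 1.94 TPM to Nme2 at 1195 and 1211 TPM, and the replicates of most genes nearly coincide.

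PRPP, the activated sugar that both routes consume, is made by the PRPP synthetases. Prps1 stood at 125 TPM in replicate 1 and 129 TPM in replicate 2, and Prps2 at 56.2 and 57.1 TPM. Prps1 was thus the higher in both, with a ratio of 2.24 ± 0.0139. By expected count, which longer transcripts raise, the ratio was 1.20 ± 0.0141, because the main Prps2 transcript has 3699 nt and that of Prps1 1965 nt. A further locus, Prps1l3 on chromosome 12, stood at 126 and 140.4 TPM, as high as Prps1 itself. Its coding sequence is 96.9% identical to that of Prps1 over 957 nt, with runs of up to 164 nt in common, while Prps2 is 79.9% identical. The deposited posterior SD of the Prps1 count was 1.28 in replicate 1 and 1.46 in replicate 2, so few reads were uncertain between them. Counting Prps1l3 with Prps1 raised the ratio to Prps2 to 4.59. Prpsap1 and Prpsap2, which encode non-catalytic partners of the synthetases, stood at 61.5 and 71.5 TPM and at 115 and 119.8 TPM.

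The genes of the route from PRPP to IMP were all well expressed, with a median of 178 ± 2.08 TPM over 6 genes. Paics, whose protein carries out a carboxylation and a ligation in mid-pathway, was the highest at 338 and 379 TPM. Gart, a multifunctional enzyme that acts before and after the amidation step, followed at 222 and 225 TPM, and Adsl, the lyase used both here and in the AMP branch, at 215 and 212 TPM. Gart exceeded Adsl in both replicates by a small margin. Atic, which closes the ring to IMP, stood at 143 and 141 TPM. Ppat, the amidotransferase that commits PRPP to purines, stood at 120.1 and 124 TPM, and Pfas, the amidation enzyme, was lowest at 47.4 and 49.4 TPM. By transcript level the gene of the committing enzyme was therefore not the lowest of its route. By TPM the order Paics, Gart, Adsl, Atic, Ppat, Pfas was the same in both replicates. By expected count it differed. Gart held 14417 and Paics 14369 counts in replicate 1, but 13751 and 15060 in replicate 2. Ppat, at 9304 and 9209 counts, stood above Atic at 7469 and 7088 and Adsl at 6760 and 6432.

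Ppat and Paics lie head to head on chromosome 5 of GRCm38. Ppat (ENSMUSG00000029246.10) spans 76913249 to 76951578 on the minus strand and Paics (ENSMUSG00000029247.13) 76951307 to 76967509 on the plus strand, so that their annotated starts overlap by 272 nt. Their levels were unequal, with Ppat at 0.341 ± 0.0199 times Paics by TPM and 0.630 ± 0.0255 times by expected count. The RefSeq promoter windows of both genes (250 bases before to 50 after the start, GRCm38.p6) are shown because the genes start so close together but stand at different levels. The Paics window is chr5:76951052-76951351 on the plus strand and the Ppat window chr5:76951529-76951828 on the minus strand. Capitals mark CACGTG (E-box), CCAAT, and TTTCCCGC or its reverse complement (an E2F-type sequence).
Paics: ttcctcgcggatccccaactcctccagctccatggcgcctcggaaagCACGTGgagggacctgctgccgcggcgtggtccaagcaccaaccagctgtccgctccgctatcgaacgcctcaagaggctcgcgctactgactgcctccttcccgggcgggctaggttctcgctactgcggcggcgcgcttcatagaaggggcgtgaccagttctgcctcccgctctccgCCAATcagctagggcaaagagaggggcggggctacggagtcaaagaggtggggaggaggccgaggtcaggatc
Ppat: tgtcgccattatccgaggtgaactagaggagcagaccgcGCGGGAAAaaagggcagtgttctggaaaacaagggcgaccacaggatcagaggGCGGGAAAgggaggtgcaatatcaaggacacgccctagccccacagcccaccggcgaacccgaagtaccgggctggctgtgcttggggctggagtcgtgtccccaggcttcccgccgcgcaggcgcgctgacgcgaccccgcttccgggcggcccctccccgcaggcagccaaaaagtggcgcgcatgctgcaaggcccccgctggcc
The Paics window held a CACGTG and a CCAAT, and the Ppat window held the E2F-type sequence at 2 places and neither of the others.

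Promoter windows were found by symbol for 34 of the 37 genes, all except Pfas, Dhodh and Rrm2b. CACGTG, which reads the same on both strands, was in 6 of the 34, or 17.7%: Paics, Atic, Impdh2, Tyms, Dtymk and Nme1. The same letters were in 8.09% of all 27025 windows and in 12.2% of the 8079 windows of genes at 1 TPM or more. Of the de novo genes 3 of 13 held it, against 0 of 8 salvage genes. TTTGGCGC or TTTCCCGC on either strand was in 2 windows, or 5.88%, Prps2 and Ppat, against 1.80% of all windows and 3.76% of those of expressed genes. CCAAT on either strand was in 14 windows, or 41.2%, against 41.1% and 44.0%, so its share was that of promoters at large. These letters are a description of the sequence, and binding was not measured.

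From IMP, adenylosuccinate synthetase (Adss) and then Adsl lead to AMP, while IMP dehydrogenase and Gmps lead to GMP. Impdh2 stood at 373 TPM in replicate 1 and 354 TPM in replicate 2, the third highest of the 37 by mean. Its paralog Impdh1 was the lowest of the 37 at 2.38 and 1.94 TPM, from 110 and 82 counts. IMP dehydrogenase catalyses the rate-limiting step of GMP synthesis and is the target of the immunosuppressant mycophenolic acid, and the type 2 enzyme is known as the inducible form of human lymphocytes. The ratio of Impdh2 to Impdh1 was 157 in replicate 1 and 183 in replicate 2 by TPM, and 124 ± 18.2 by expected count. Its exact size is uncertain since Impdh1 is low: with the deposited posterior mean TPM, which puts Impdh1 at 3.39 and 3.03 TPM, the ratio was 111. Adss stood at 80.4 and 91.5 TPM and Gmps, the GMP synthetase, at 35.5 and 41.1 TPM. Among the genes that lead on from IMP the order by TPM was Impdh2, Adss, Gmps, Impdh1 in both replicates. By expected count Gmps stood above Adss, at 5852 and 6501 against 4240 and 4613.

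The level of Impdh2 (ENSMUSG00000062867.9, chromosome 9, 108560286 to 108565584, plus strand) depends on how reads were divided with a processed pseudogene. Impdh2-ps (chromosome 8, 100030558 to 100032102, plus strand) is as long as the Impdh2 coding sequence, 1545 nt, and differs from it at 4 bases, an identity of 99.7%. The longest stretch without a difference has 611 nt. The main Impdh2 transcript has 1858 nt, so it also holds bases outside the compared coding sequence. The windows below are coding positions 230 to 310 of Impdh2 and the matching bases of Impdh2-ps. They are shown because they hold 1 of the 4 differences within the coding sequence, in capitals.
Impdh2: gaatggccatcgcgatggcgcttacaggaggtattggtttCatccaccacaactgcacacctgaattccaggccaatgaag
Impdh2-ps: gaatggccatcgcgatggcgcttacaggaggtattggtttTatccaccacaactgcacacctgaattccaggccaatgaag
The tables gave Impdh2-ps 66.9 and 70.6 TPM, from 1848 and 1873 counts, or 13.8% ± 0.821 of the counts on both loci. The posterior SD of these counts was only 24.4 in replicate 1 and 24.5 in replicate 2. Adding the pseudogene to Impdh2 raised its ratio to Impdh1 to 202. Whether the assigned reads came from the pseudogene or from Impdh2 was not tested.

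The de novo pyrimidine genes were split, with Umps and Ctps above the other 3 genes. Cad, the multienzyme protein that starts the pathway, stood at 28.5 and 29.8 TPM, and Dhodh, the mitochondrial dihydroorotate dehydrogenase, at 27.0 and 28.4 TPM. Umps, which makes UMP from orotate, stood at 133 and 126 TPM. Ctps, the CTP synthetase required for lymphocyte proliferation in humans, stood at 138 and 143 TPM. The genes for the later steps to UMP and CTP thus stood above those for the early steps in both replicates, apart from Ctps2. The Cad transcript is long, at 7137 nt, so that a level like that of Dhodh rested on 3685 and 3841 counts for Cad and on 997 and 976 counts for Dhodh. The median of the group was 29.1 ± 0.983 TPM over 5 genes.

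Ctps2, the second CTP synthetase gene (ENSMUSG00000031360.10, X chromosome, 162901238 to 163032508, plus strand), stood at 20.5 and 28.2 TPM. Ctps exceeded Ctps2 by 6.72 times in replicate 1 and 5.05 times in replicate 2 by TPM, and by 11.0 ± 2.06 times by expected count. Relative to its level, Ctps2 had the widest credibility bounds of the 37 genes. Its 565 and 728 counts were spread over 13 annotated transcripts, of which a 741 nt transcript took 49.6% and 52.6% of the TPM with 110 and 154 counts. The deposited credibility bounds of its TPM ran from 18.9 to 62.5 in replicate 1 and from 25.9 to 93.3 in replicate 2. With the posterior mean TPM, 34.8 and 50.1, the ratio of Ctps to Ctps2 was 3.31.

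Purine salvage was led by the phosphoribosyltransferases, which join a free base to PRPP. Hprt (ENSMUSG00000025630.8, X chromosome, 52988137 to 53021659, plus strand), the enzyme for hypoxanthine and guanine, stood at 403 TPM in replicate 1 and 431 TPM in replicate 2, the second highest of the 37. Aprt, the enzyme for adenine, stood at 374 and 326 TPM. Their ratio was 1.08 in replicate 1 and 1.32 in replicate 2, so Hprt was higher in both, by a margin that varied. Adk, adenosine kinase, was lower at 69.1 and 69.5 TPM. Of the breakdown enzymes that feed this route, Pnp, which splits inosine and guanosine, stood at 136 and 137 TPM, while Ada, which deaminates adenosine and deoxyadenosine, stood at 18.4 and 16.7 TPM. Pnp had no row under its current identifier. Both of its annotated transcripts were listed under ENSMUSG00000021871.13, and that row was used. Pnp2, which overlaps Pnp on the same strand and whose transcript is 97.8% identical over 934 nt, held 1.08 and 7.85 counts.

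Pyrimidine and deoxynucleoside salvage differed widely among its 5 genes, with a median of 29.0 ± 1.89 TPM. Uck2, a uridine and cytidine kinase, stood at 279 TPM in replicate 1 and 238 TPM in replicate 2, against 27.7 and 30.4 TPM for its paralog Uck1. Their ratio was 8.95 ± 1.57 by TPM and 11.2 ± 0.749 by expected count. Tk1, the thymidine kinase of S phase, stood at 112 and 114 TPM, and Tk2, its mitochondrial counterpart, at 5.38 and 5.66 TPM. The ratio of Tk1 to Tk2 was 20.5 ± 0.565 by TPM and 9.94 ± 0.0320 by expected count. Dck, deoxycytidine kinase, which also activates nucleoside drugs, stood at 25.9 and 23.8 TPM. In both kinase pairs the genes lay far apart in each replicate, with Uck2 and Tk1 above Uck1 and Tk2.

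De novo and salvage genes did not separate by level. The 15 de novo genes had a median of 120.1 TPM in replicate 1 and 124 TPM in replicate 2, the 8 salvage genes 90.7 and 91.6 TPM, a ratio of 1.34 ± 0.0206. Summed levels were 1949 ± 35.1 TPM for de novo genes and 1267 ± 41.0 TPM for salvage genes, a ratio of 1.54 ± 0.0775. Both lists spanned wide ranges that overlapped, de novo genes from 2.16 to 363 TPM and salvage genes from 5.52 to 417 TPM. The ratio of medians fell to 1.08 without Tk2, and was 2.85 by expected count, a scale on which longer transcripts weigh more. By role, the medians were 178 TPM for the route to IMP, 62.1 ± 5.91 TPM for the AMP and GMP branches and 29.1 TPM for de novo pyrimidine genes, and 350 ± 33.9 TPM for purine salvage and 29.0 TPM for pyrimidine and deoxynucleoside salvage. Single genes crossed this order, since Umps and Ctps stood above Ppat and Pfas in both replicates. These medians rest on 3 to 6 genes each, and genes are not replicates, so no test was made.

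**Figure D2:**
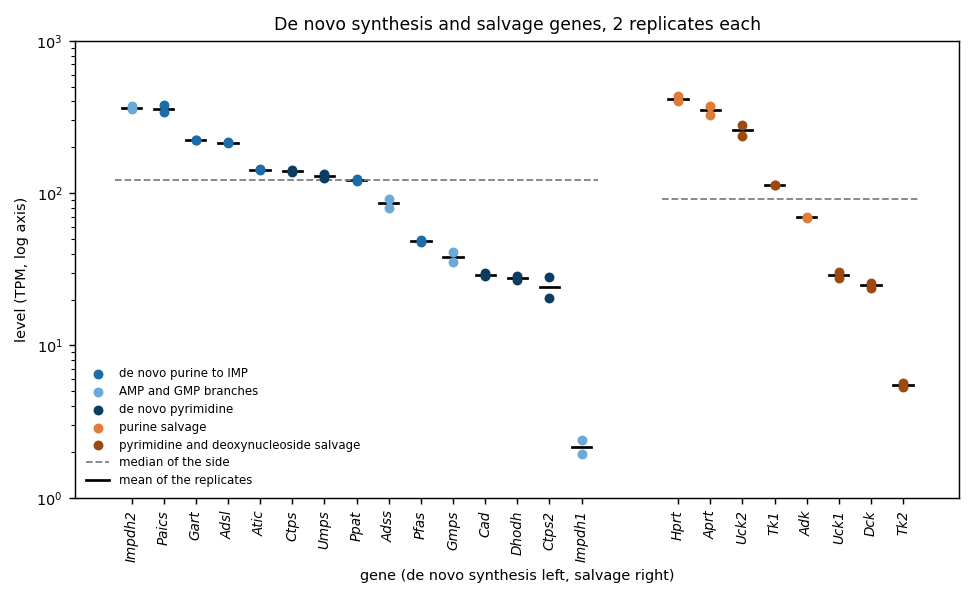
Level in TPM (log axis) of the 15 de novo genes at left and the 8 salvage genes at right, with a point for each replicate, a short bar at their mean and a dashed line at the median of each side (122 and 91.2 TPM). Both sides hold genes above 300 TPM and genes below 30 TPM, and Impdh1 and Tk2 lie far below the rest.

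The genes that supply deoxynucleotides were high, with a median of 169 ± 10.3 TPM over 5 genes. Ribonucleotide reductase, which turns ribonucleotides into deoxynucleotides, had its large subunit gene Rrm1 at 162 and 176 TPM and its S-phase small subunit gene Rrm2 at 138 and 143 TPM. Their ratio was near unity by TPM, 1.20 ± 0.0435, and 2.40 ± 0.0857 by expected count. Rrm2b, the p53-inducible small subunit, was low at 13.6 TPM in each replicate, so Rrm2 exceeded it by 10.3 ± 0.226 times. Dut, the dUTPase that makes dUMP and keeps uracil out of DNA, stood at 268 and 269 TPM. Tyms, which methylates dUMP to dTMP, stood at 171 and 202 TPM, though the transcripts behind this level need care.

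Tyms (ENSMUSG00000025747.8, chromosome 5, 30058202 to 30073617, minus strand) was assigned mostly to transcripts that are not annotated as coding. A 797 nt transcript of the nonsense-mediated decay class took 59.2% and 61.5% of its TPM, and an 816 nt transcript with a retained intron took 28.2% and 28.7%. The 3163 nt coding transcript took 10.8% and 7.94%, which is 18.5 and 16.0 TPM. By expected count the coding transcript held 1137 of 3152 counts in replicate 1 and 944 of 3290 in replicate 2. Short transcripts weigh more in TPM than in counts, and the tables divide reads that several transcripts share by a model. The other genes of the group were assigned almost wholly to coding transcripts, with shares of 96.8% or more.

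Nucleotide kinases raise monophosphates to diphosphates and triphosphates for DNA and RNA. Nme2, a nucleoside diphosphate kinase, was the highest of the 37 genes at 1195 TPM in replicate 1 and 1211 TPM in replicate 2. Its paralog and neighbour Nme1 stood at 340 and 371 TPM. Nme1 therefore stood at 0.295 ± 0.0152 times Nme2 by TPM and 0.367 ± 0.0339 times by expected count. Dtymk, the thymidylate kinase, stood at 220 and 212 TPM, Guk1, the guanylate kinase, at 100.3 and 114 TPM, and Cmpk1, the UMP and CMP kinase, at 88.1 and 96.6 TPM. Impdh2, Paics, Nme1 and Aprt, with means of 363 ± 12.9, 359 ± 29.0, 355 ± 21.8 and 350 ± 33.9 TPM, could not be ordered beyond their spread.

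Nme1 (ENSMUSG00000037601.7, 93956979 to 93968521) and Nme2 (ENSMUSG00000020857.7, 93949814 to 93956259) follow each other on the minus strand of chromosome 11, with Nme1 upstream and 719 nt between them. Their coding sequences are both 459 nt long and 79.96% identical, with no identical run beyond 29 nt. The first 120 coding bases are shown because 16 differences in that stretch, in capitals, separate reads of the paralogs.
Nme1: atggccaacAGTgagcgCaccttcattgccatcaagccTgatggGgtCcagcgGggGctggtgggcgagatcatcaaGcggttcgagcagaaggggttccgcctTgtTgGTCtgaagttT
Nme2: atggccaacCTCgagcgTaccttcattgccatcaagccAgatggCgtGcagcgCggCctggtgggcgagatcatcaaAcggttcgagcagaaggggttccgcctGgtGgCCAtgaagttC
A spanning gene, Gm20390 (93949819 to 93968293, same strand), overlaps both and has transcripts that join them. It held 103 TPM in each replicate, or 6.21% ± 0.122 of the TPM of the 3 genes, with a posterior SD of 78.6 and 85.9 on its 1655 and 1590 counts. Adding it to both genes changed the ratio of Nme1 to Nme2 to 0.351. Gm5566, a processed pseudogene of Nme2 with 97.2% identity over 459 nt, held 34.8 ± 2.72 TPM from 162 and 174 counts.

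**Figure D3:**
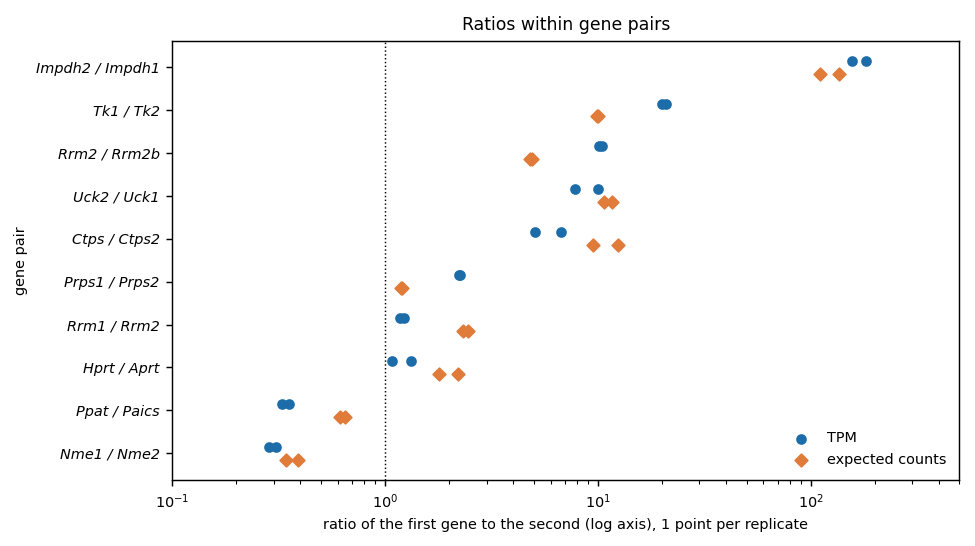
Ratio of the first to the second gene of 10 pairs (log axis), with a circle for TPM and a diamond for expected counts, 1 point per replicate, and a dotted line at a ratio of 1. Impdh2 over Impdh1 is the widest at 157 and 183 by TPM, and no pair changes side of the line between replicates or between TPM and counts.

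Which gene of a pair comes first was set by hand, so the number of pairs on either side of 1 carries no meaning. By TPM, Impdh2, Tk1, Rrm2, Uck2, Ctps, Prps1, Rrm1 and Hprt were higher than their partners in both replicates. Ppat was lower than Paics and Nme1 lower than Nme2. Counts without length correction gave the same side for each pair but other sizes, such as 4.85 in place of 10.3 for Rrm2 over Rrm2b and 2.40 in place of 1.20 for Rrm1 over Rrm2.

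**Figure D4:**
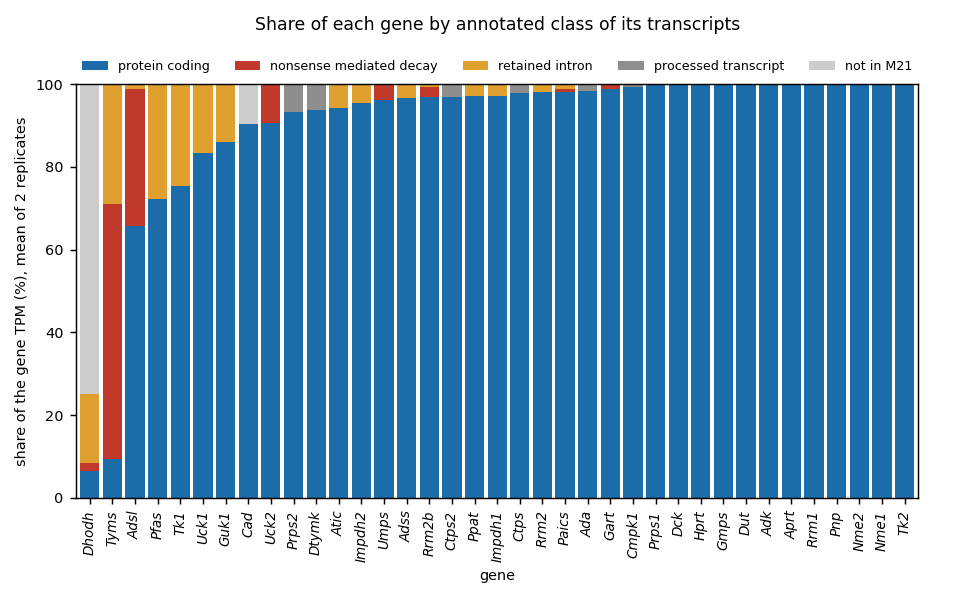
Share of the TPM of each gene, in percent and as mean of 2 replicates, on its transcripts by annotated class, as stacked bars. Tyms at 9.36% and Adsl at 65.6% have the lowest coding shares among genes whose transcripts are all in the newer annotation, and the main transcript of Dhodh is in grey because that annotation lacks it.

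Transcript use differed between the 37 genes. In 12 genes the leading transcript held under 80% of the TPM, 7 genes had a single annotated transcript, and in 30 genes at least 90% of the TPM lay on transcripts annotated as coding. The same shares over all genes are not given here, so whether these counts are unusual was not tested. Adsl had 33.3% ± 0.170 on transcripts of the nonsense-mediated decay class, mainly a 1932 nt transcript, and 53.9% on a 1278 nt coding transcript. Pfas had 27.8% and Tk1 24.7% ± 4.19 on transcripts with retained introns. The Dhodh share could not be classed, because 74.9% ± 3.34 lay on a 2318 nt transcript that is missing from the newer annotation.

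Several genes divided their level between a short and a long coding transcript. Uck2 had 56.2% and 53.4% of its TPM on an 803 nt transcript and 32.1% and 37.1% on a 4731 nt transcript, but the long one held 8414 of 10932 counts in replicate 1 and 7984 of 9867 in replicate 2. Nme1 behaved alike, with 66.1% and 59.1% on a 493 nt transcript, while a 3181 nt transcript with 23.0% and 25.1% held 4828 and 5522 counts. In both genes the TPM thus rested on the shorter and the counts on the longer transcript. Gart had 87.9% and 83.9% on its 3518 nt transcript and 11.4% and 14.4% on an 1865 nt coding transcript. The short Gart product is known to carry the early glycinamide step alone. Dut, whose nuclear and mitochondrial forms are known to come from alternative starts in humans, had 69.1% and 77.4% on a 1020 nt transcript and 30.9% and 22.6% on a 1950 nt transcript. Adk had 1 annotated transcript, so that its long and short forms could not be told apart.

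For 14 of the 37 genes, other annotated genes held transcripts at least 90% identical over 200 nt or more. These were 20 copies in all, and 11 of them had a row in the tables. Gm20390 and Pnp2 among them overlap Nme1, Nme2 and Pnp on the same strand and are not separate loci. The share of reads from copies with no row, among them Gm4482, 99.3% identical to Uck1 over 742 nt, and Gm8616, 96.1% identical to Rrm2b over 1051 nt, was not tested. Apart from Prps1l3, Impdh2-ps, Gm20390 and Gm5566, the highest of those with a row was the Cmpk1 pseudogene Gm5867 at 1.99 ± 0.0566 TPM. For 30 genes the deposited posterior SD of the count was 0 in both replicates. It was largest for Nme1 (44.0 and 49.0 counts), Nme2 (42.8 and 44.3) and Impdh2. Same-strand overlap was otherwise at 2.90 TPM or less, for the pseudogene Gm3362 within Rrm2b. Rrm2b itself stood at only 13.6 TPM, and with Gm3362 added to it the ratio of Rrm2 to Rrm2b was 8.53 in place of 10.3. On the opposite strand the highest by TPM, apart from Ppat and Paics, was Ndufaf3 at 11.9 TPM, which shares 48 nt with Impdh2. By count it was Gm20388, which shares 2275 nt with Aprt. Gm20388 held 880 and 682 counts, or 10.2 TPM, against 5023 and 4204 counts for Aprt. Whether reads passed between such opposite-strand genes was not tested.

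The replicates lay close together. Over genes with a mean of 20 or more expected counts, the difference of replicate 1 minus replicate 2 on the log2(TPM + 0.5) scale, which understates differences of low genes, was compared with a 1.5-fold limit. None of the 37 genes passed it in either direction, while 1.84% of the 11661 genes were higher and 0.858% lower in replicate 1 by that much. The median absolute difference was 0.0726 for the 37 genes and 0.135 for all. These sets differ in level, since the 37 are mostly high and all genes include those near 20 counts. Genes of like level were not compared, so a closeness particular to the 37 was not tested. By TPM 10 of the 37 were higher and 27 lower in replicate 1, against 5856 higher and 5752 lower of the 11661 genes. The median was -0.036 for the 37 and 0.0022 over all genes, and both depend on how the libraries are scaled.

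The largest fall in replicate 1 was that of Ctps2 at -0.45, which is 0.730-fold, and the largest rise that of Impdh1 at 0.24. By CPM (counts scaled to the library total) Ctps2 stood at -0.42 and Impdh1 at 0.37. Uck2 was higher in replicate 1 by 0.23 and Tyms lower at -0.23, but by CPM only by 0.096 and at -0.11. Aprt at 0.20 and Gmps at -0.21 had CPM differences of 0.20 and -0.20. All 5 deoxynucleotide genes were lower in replicate 1 by TPM, from Dut at -0.0035 to Tyms, but Dut was higher by CPM, at 0.11. For Nme1 the difference was -0.12 by TPM and -0.21 by CPM. With 1 library on each side these values describe the libraries alone.

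**Figure D5:**
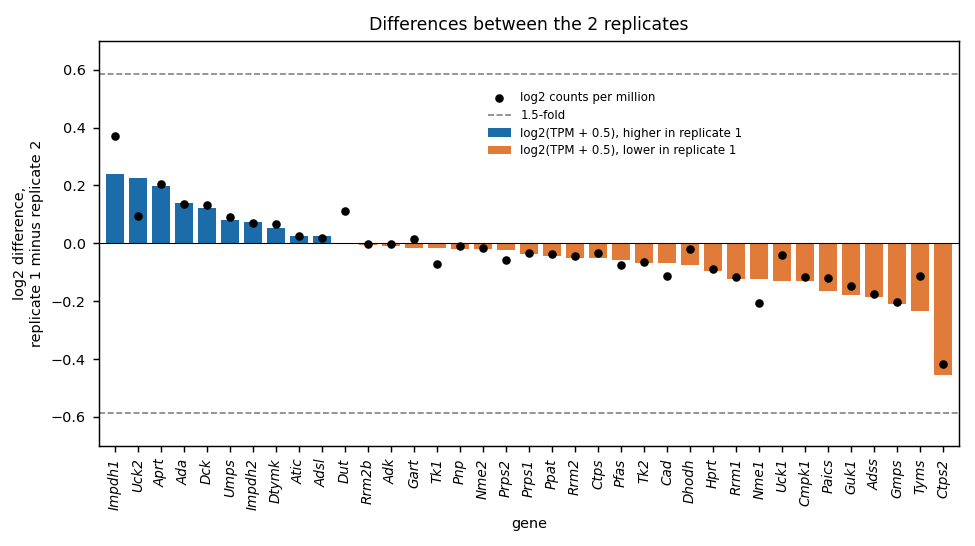
Log2 difference of replicate 1 minus replicate 2 for each of the 37 genes, as bars on the log2(TPM + 0.5) scale and as black points on CPM, with dashed lines at 1.5-fold. No bar or point reaches the lines, Impdh1 is the highest bar at 0.24 and Ctps2 the lowest at -0.45.

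Of other genes around nucleotide metabolism, 46 of 78 stood at 1 TPM or more in both replicates, a level that 45.9% of protein-coding genes reached, and their median was 7.84 TPM. In the folate and one-carbon list, which supplies carbon to purines and dTMP, 11 of 15 passed. Mthfd2, a mitochondrial folate enzyme, was highest at 218 and 213 TPM, followed by the serine hydroxymethyltransferases, mitochondrial Shmt2 at 172 and 177 TPM and cytosolic Shmt1 at 152 and 180.2 TPM, whose order differed between the replicates. Aldh1l1, Aldh1l2, Gldc and Amt, enzymes of folate oxidation and glycine cleavage, were below 1 TPM, the lowest being Aldh1l2 at 0.025 TPM.

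Among purine side enzymes 11 of 20 passed, led by Prps1l3 and Prpsap2. The AMP deaminase gene Ampd2 stood at 24.4 TPM in both replicates, while Ampd1 and Ampd3 stayed below 0.3 TPM. The purine catabolic genes Xdh (xanthine dehydrogenase), Gda (guanine deaminase) and Uox (urate oxidase) held at most 2 counts in a library, and the GMP reductase gene Gmpr stood at 0.67 and 0.55 TPM, its paralog Gmpr2 at 28.3 and 27.8 TPM. Mtap, which salvages adenine from methylthioadenosine, and the PRPP synthetase gene Prps1l1 held 0 counts in both libraries. With 3 counts as the limit that a count of 0 allows, Mtap could stand at up to 0.0986 TPM in replicate 1 and 0.103 TPM in replicate 2, which covers counting error only. Transcripts of the adenine salvage gene Aprt were thus detected. Those of Mtap, for the enzyme that releases adenine from methylthioadenosine, were not.

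Pyrimidine side enzymes passed in 6 of 12 cases. Dctpp1, a dCTP pyrophosphatase, stood at 170.1 and 150.3 TPM and Dctd, the dCMP deaminase that feeds dUMP to Tyms, at 43.3 and 41.4 TPM. Pyrimidine catabolism and nucleoside breakdown were low: Cda (cytidine deaminase), Dpyd, Dpys and Upp2 held 0 counts, and Upp1 held 1 count in replicate 1 and 0 in replicate 2. Upb1, the last enzyme of pyrimidine breakdown, and Tymp, thymidine phosphorylase, passed just above the limit, Upb1 at 1.00 and 1.43 TPM from 59 and 48 counts and Tymp at 1.89 and 1.77 TPM. For Cda, the limit that 3 counts set is 0.256 TPM in replicate 1 and 0.267 TPM in replicate 2. Cmpk2, a mitochondrial kinase, stood at 0.11 and 0.20 TPM, so that Cmpk1 was the higher of the pair by far.

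In the list of adenylate and nucleoside diphosphate kinases 8 of 14 passed, with Ak6 highest at 365 and 381 TPM. Ak5, Ak7, Ak8, Ak9, Nme4 and Nme5 stayed below 1 TPM in both replicates, from 0.085 TPM for Ak5 and Nme5. Nucleotidases and dNTP-removing enzymes passed in 7 of 10 cases, with Nt5c3 at 63.3 and 63.0 TPM and the dNTPase gene Samhd1 at 52.3 and 60.9 TPM. Nt5e, the ecto-nucleotidase CD73, stood at 0.06 and 0.03 TPM, and Nt5c1a and Nt5c1b held 0 counts.

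Of the nucleoside transporters 3 of 7 passed. The equilibrative transporter Slc29a1 stood at 55.4 and 52.7 TPM and the concentrative, purine-preferring transporter Slc28a2 at 23.2 and 24.5 TPM. Slc29a2, at 1.04 and 0.71 TPM, missed the limit in replicate 2 only. Slc28a1, Slc28a3 and Slc29a4 held at most 2 counts in a library. The lists of these other genes were not tested against the 37.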

How the data were processed

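RNA of CH12.LX was measured in 2 libraries, biological replicates 1 and 2 of separate biosamples, which form 1 group. The labels call the assay total RNA sequencing but describe the RNA as polyA+ and longer than 200 nt, and this was not settled here. Per the labels, ERCC spike-ins were added. For each library the authors deposited gene and transcript tables made on mm10 with GENCODE M4, per the accompanying text files. Those text files also list separate signal tracks for the plus and minus strand. Which aligner, quantification tool and strand setting were used is not given in the sources used here.

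The authors deposited expected counts, which divide shared reads between features by a model and are not normalized, and TPM, which is scaled for length and to the same total in each library. The transcript tables hold the isoform percent deposited by the authors. The posterior mean TPM, the posterior SD of the count and the credibility bounds of TPM, other values the authors deposited, served as alternatives and to mark uncertain genes. FPKM values, also deposited by the authors, were not used.

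Symbols, transcript classes and coordinates came from GENCODE M21 on GRCm38 (mm10) by identifier without version, which found 36 of the 37 genes, and Pnp was found by its transcripts. Replicate 2 was subtracted from replicate 1 on the log2(TPM + 0.5) scale at a mean of 20 or more expected counts, with a 1.5-fold limit. The call was tried on simulated data with counting error alone, on the CPM scale. Those data had larger changes and higher counts than these limits, so that trial gives no error rate for the libraries here. Close copies were found with BLAST 2.17.0 (90% identity or more, 200 nt or more), coding sequences were compared with Biopython 1.88, and promoter windows are those of RefSeq. Alternatives were TMM factors of edgeR 4.0.16 on rounded expected counts, median-of-ratios factors, ERCC scaling, other limits and lists, and coding transcripts only. The members and lists were chosen with earlier results of these data known. The named genes are the 37, the highest 2, the lowest 2 and the genes below 1 TPM of each other list, overlapping genes on the same strand and the largest replicate differences. Ampd2, Gmpr2, Prpsap1, Shmt1, Tymp, Upb1, copies without a row and opposite-strand Ndufaf3 and Gm20388 were named after their values were seen. The listed symbol Adss1 had no feature. Another gene that this rule names is not reported here.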

Additional observations from a re-analysis of the deposited data

How the results depend on the processing

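No ratio of genes or lists changed side and the median difference of the 37 genes stayed below 0 under the alternatives run. The median difference of all genes, 0.0022, was close to 0 and changed sign under some alternatives (-0.0035 with median-of-ratios factors, -0.0101 with posterior mean TPM), and those of Dut and Gart changed sign by CPM. Among the main results 49 of 59 values under alternatives stayed within the spread of the replicates or within 1.5 times the count, and 10 moved. The 49 include values from 1 replicate alone. For the main ratios and the share of TPM these always lie within the SD of the 2 replicates, so they could not move. The ratio of de novo to salvage medians, 1.34, was 1.53 with coding transcripts only, 2.85 by expected count and 1.08 without Tk2. The ratio of sums, 1.54, was 3.20 by expected count, 1.37 with Ada and Pnp counted as salvage and 1.69 with Prps1 and Prps2 counted as de novo. Leaving out a replicate gave 1.32 to 1.35 for the medians and 1.49 to 1.60 for the sums. The count of genes past 1.5-fold between replicates, 0, was 1 under ERCC scaling, and 1 passed the lower fold limit that was tried, Ctps2 in both cases. ERCC scaling moved the median difference of the 37 genes to -0.344 and that of all genes to -0.286. The share of the total held by the 37 genes, 0.631% of TPM, was 0.866% by expected count. Of values for single pairs and groups, where values from 1 replicate alone are also counted, 38 of 136 moved. CPM and the addition of close copies were chosen after seeing the data. Leaving out a replicate is not possible for differences between replicates. No paired analysis was possible because there is 1 group. With 2 libraries the SD is itself imprecise, and counts of about 100, as for Impdh1, limit the ratios they enter.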
